A study of Rattus norvegicus with 12 samples.

Results

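The genes described here are those of MHC class II antigen presentation, 8 of the 17423 genes listed in the tables. They are the chains of the peptide-presenting molecules RT1-Ba, RT1-Bb, RT1-Da and RT1-Db1, the peptide-loading chains RT1-DMa and RT1-DMb, the invariant chain Cd74 and the transactivator Ciita. They were chosen by name for their role, with earlier results of these data known, and all 8 were found in both tables. RNA-seq was performed on the spinal cord injury epicenter of 12 female rats, with 3 rats in each of 4 groups. Athymic nude (AN, Hsd:RH-rnu/rnu) rats, whose rnu mutation leaves them without a working thymus, were compared with Sprague-Dawley (SD, Hsd:SD) rats in an acute phase, 1 week after injury, and a chronic phase, 8 weeks after it. All rats were adults of 16 to 18 weeks when injured, so those of the chronic phase were older when sampled, all received a 200 kdyn contusion, and no uninjured cord is among the groups. The deposited tables hold 1 FPKM value (fragments per kilobase of transcript, scaled for sequencing depth) for each group of 3 rats. No replicate error is therefore available, no difference below was tested, and each is given as the ratio of 2 group values. The strains differ in their whole genetic background as well as in T cells, and these cannot be told apart.

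MHC class II molecules present peptides from the endosomal pathway to CD4+ T cells. Each is a heterodimer of an alpha and a beta chain. In the rat the RT1-B and RT1-D genes encode these heterodimers, Cd74 encodes the invariant chain that escorts them to endosomes, and RT1-DM exchanges the remnant of that chain for peptide. Ciita switches the whole set on through a complex bound to the X and Y boxes of their promoters. In the injured spinal cord, microglia and infiltrating macrophages are the cells best known to carry class II.

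The ratio of AN to SD rats for the class II genes differed between the phases, in opposite directions for the presenting chains and for RT1-DM. The FPKM ratio of AN over SD was below 1 acutely and above 1 chronically for RT1-Ba, RT1-Da and RT1-Db1. RT1-Bb was the member with the largest chronic ratio, 3.60-fold in favour of AN rats. RT1-DMa and RT1-DMb were 1.995-fold and 1.95-fold higher in acute AN rats and within 1.03-fold of SD rats in the chronic phase. Cd74 was 1.89-fold lower in acute AN rats and close to equal in the chronic phase.

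The promoters of the members are shown because their X and Y boxes are the shared element through which Ciita acts. The RefSeq promoter table, on the GRCr8 assembly, held 6 of the 8 members. RT1-DMb and Ciita had no entry. An X box of 14 bases, with up to 2 mismatches, followed after 10 to 30 bases by the Y box letters ATTGG was found on the gene's own strand in 4 of these 6, RT1-Da, RT1-Db1, RT1-Bb and RT1-DMa. The same pair on the gene strand occurs in 0.0777% of all 33469 promoters of 300 bases. The mismatch limit and the spacing were set after these promoters had been read, so the count is a description. The stretches lie at chr20:4515321-4515378 (plus strand) for RT1-Da, chr20:4560230-4560286 (minus strand) for RT1-Db1, chr20:4576969-4577026 (plus strand) for RT1-Ba, chr20:4604167-4604223 (minus strand) for RT1-Bb, chr20:4712387-4712444 (minus strand) for RT1-DMa and chr18:56526978-56527029 (plus strand) for Cd74, all on GRCr8. Each is written 5′ to 3′ on the gene's strand, with the matched boxes in capitals.
RT1-Da: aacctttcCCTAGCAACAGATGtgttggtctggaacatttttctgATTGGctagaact
RT1-Db1: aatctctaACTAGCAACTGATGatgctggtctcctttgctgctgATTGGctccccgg
RT1-Ba: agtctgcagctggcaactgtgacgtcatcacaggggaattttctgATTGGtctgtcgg
RT1-Bb: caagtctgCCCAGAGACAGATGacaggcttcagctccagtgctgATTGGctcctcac
RT1-DMa: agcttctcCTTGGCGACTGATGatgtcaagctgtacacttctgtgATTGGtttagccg
Cd74: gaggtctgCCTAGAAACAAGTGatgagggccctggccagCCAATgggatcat

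The X box matched without a mismatch in RT1-Da and RT1-Bb, with 1 mismatch in RT1-Db1 and with 2 in RT1-DMa and Cd74. Between 22 and 23 bases separated the boxes in the 4 RT1 genes that held both. In Cd74 the Y box letters lay on the opposite strand, as CCAAT, 17 bases after the X box. The RT1-Ba window held the Y box letters but no X box match at this limit. Taken singly the boxes are common: the Y box letters occur on either strand in 37.5% of all promoters and the X box match in 7.9%. RT1-DMa counts among the genes with both boxes only at the limit of 2 mismatches.

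**Figure D1:**
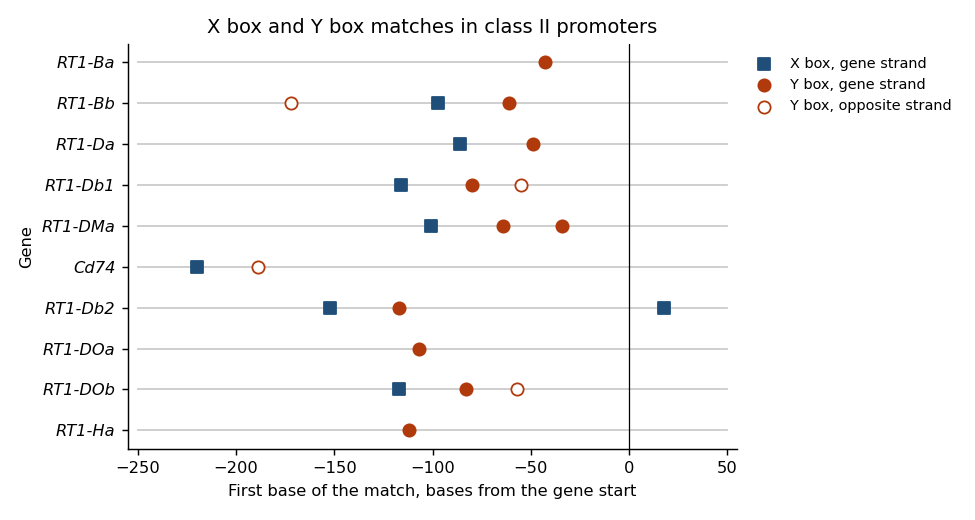
X box (squares) and Y box (circles) matches in the RefSeq promoters of class II genes, from 250 bases before to 50 bases after the gene start, plotted by the first base of the match; filled symbols are on the gene's strand and open symbols on the opposite strand. RT1-Bb, RT1-Da, RT1-Db1 and RT1-DMa, and the further class II genes RT1-Db2 and RT1-DOb, hold an X box match followed by a Y box on the gene's strand. RT1-Ba, RT1-DOa and RT1-Ha hold a Y box without an X box match at the limit of 2 mismatches, which does not show that they lack an X box. Cd74 holds its pair farther from the start, with the X box at -220.

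The alpha and beta chains of the presenting molecules were described first. RT1-Da, the alpha chain of the RT1-D molecule (RGD:1593283, chr20:4636310-4641282 on RN4), had 54.8 FPKM in SD and 37.8 in AN rats at 1 week, and 70.2 and 94.9 respectively at 8 weeks. Its lowest value was thus that of acute AN rats and its highest that of chronic AN rats, with SD rats between them. The log2 ratio of AN over SD was -0.54 at 1 week and 0.44 at 8 weeks.

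RT1-Db1, the beta chain that pairs with RT1-Da (RGD:1593282, chr20:4671489-4681058), had 20.5 FPKM in SD and 17.4 in AN rats at 1 week, and 25.5 and 46.5 respectively at 8 weeks. The order of the 4 groups was that of RT1-Da. The log2 ratio was -0.24 at 1 week and 0.87 at 8 weeks.

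RT1-Ba, the alpha chain of the RT1-B molecule (RGD:1595867, chr20:4697971-4702564), had 35.9 FPKM in SD and 24.8 in AN rats at 1 week, and 42.0 and 62.7 respectively at 8 weeks. It followed the same order again, with log2 ratios of -0.53 and 0.58.

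RT1-Bb, its beta chain (RGD:3469, chr20:4730559-4736201), departed from this order. It had 17.4 FPKM in SD and 21.1 in AN rats at 1 week, and 17.6 and 63.3 respectively at 8 weeks. Chronic AN rats stood apart from the other 3 groups, which lay between 17.4 and 21.1 FPKM. The log2 ratio was 0.28 at 1 week and 1.85 at 8 weeks, when RT1-Bb was the only member at least 2-fold higher in AN rats.

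The beta to alpha balance of RT1-B also differed between the strains. The FPKM ratio of RT1-Bb to RT1-Ba was 0.486 in acute SD and 0.419 in chronic SD rats, against 0.852 in acute AN and 1.01 in chronic AN rats. The corresponding ratio of RT1-Db1 to RT1-Da was 0.375 and 0.363 in acute and chronic SD rats, and 0.46 and 0.49 in acute and chronic AN rats. The chains are polymorphic, and reads were mapped to the RN4 genome, which comes from a different strain of rat (Brown Norway). The haplotypes of the AN and SD rats are not given in the sources used here. A level difference and a difference in how well an allele's reads map cannot be told apart. Whether any mapping loss was the same in both phases was not tested.

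Summed over the 4 presenting chains, the level was 129 FPKM in SD and 101 in AN rats at 1 week, and 155 and 267 respectively at 8 weeks. The log2 ratio of this sum was -0.35 at 1 week and 0.78 at 8 weeks. Levels set across phases come from 2 tables that the authors normalized separately, so they are side by side values only. In those terms the 4 chains were 2.51-fold to 3.00-fold higher in chronic than in acute AN rats, and 1.01-fold to 1.28-fold higher in chronic than in acute SD rats. Cd74 likewise was 2.93-fold higher at the later time in AN and 1.60-fold higher in SD rats. RT1-DMa and RT1-DMb were 2.975-fold and 3.14-fold lower at the later time in AN rats, and 1.52-fold and 1.64-fold lower in SD rats.

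**Figure D2:**
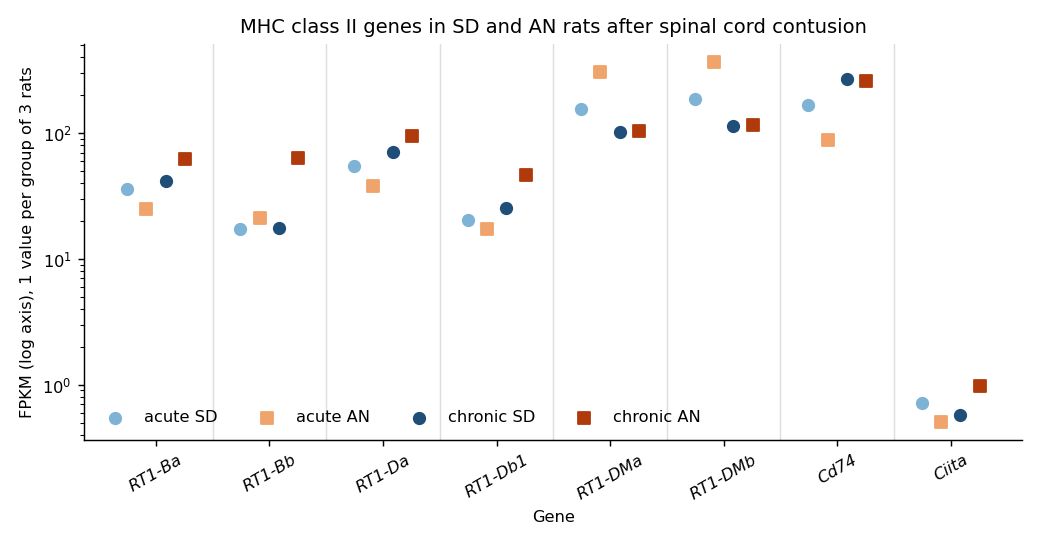
FPKM of the 8 class II genes on a log axis, with 1 point per group of 3 rats, circles for SD and squares for AN rats; there are no error bars because the tables hold 1 value per group. Acute AN rats had the lowest RT1-Ba, RT1-Da, RT1-Db1 and Cd74 and the highest RT1-DMa and RT1-DMb, and Ciita was below 1 FPKM in every group.

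The peptide-loading chains behaved differently. RT1-DMa, the alpha chain of the RT1-DM molecule (RGD:735053, chr20:4843458-4846861), had 154 FPKM in SD and 308 in AN rats at 1 week, and 101 and 103 respectively at 8 weeks. Acute AN rats stood above the other groups, and the chronic groups were nearly equal. RT1-DMb, the beta chain (RGD:735096, chr20:4829535-4836772), had 188, 368, 115 and 117 FPKM in the same order of groups. The log2 ratios were 0.996 and 0.97 at 1 week, and 0.03 for both at 8 weeks. Both acute ratios fell just short of 2-fold, and they were 0.34 and 0.31 after centring on the macrophage and microglia list.

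The pair kept a near-constant balance in all groups, with an RT1-DMb to RT1-DMa ratio of 1.22 in acute SD, 1.19 in acute AN and 1.13 in both chronic groups. Relative to the presenting chains, however, RT1-DM varied widely. The summed RT1-DM level was 2.66 times the sum of the 4 chains in acute SD rats and 6.68 times in acute AN rats. In the chronic phase it was 1.39 times in SD rats and 0.825 times in AN rats.

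Cd74, the invariant chain (RGD:2313, chr18:56756511-56765711), lies on a different chromosome from the RT1 genes. It had 168 FPKM in SD and 88.8 in AN rats at 1 week, and 268 and 260 respectively at 8 weeks. Acute AN rats were the low group, and the chronic groups were close. The log2 ratio was -0.92 at 1 week, the lowest among the members, and -0.04 at 8 weeks. The level of Cd74 was 1.30 times the summed presenting chains in acute SD and 1.72 times in chronic SD rats. In AN rats it was 0.879 times in the acute and 0.973 times in the chronic phase.

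Ciita, the transactivator of the class II genes (RGD:619813, chr10:5087174-5133418), was the lowest member in every group. It had 0.712 FPKM in SD and 0.506 in AN rats at 1 week, and 0.571 and 0.985 respectively at 8 weeks. Its order was low in acute AN and high in chronic AN rats, as for RT1-Ba, RT1-Da and RT1-Db1. Because it did not reach 1 FPKM in any group it did not pass the filter on low values and entered none of the counts below, so 7 of the 8 members were counted.

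The order of levels within a group, which FPKM allows because it is per length, changed with strain and phase. RT1-DMb, Cd74 and RT1-DMa were the 3 highest members in every group. RT1-DMb led in both acute groups and Cd74 in both chronic groups. RT1-Da was next in every group and Ciita last. RT1-Bb was below RT1-Db1 in both SD groups and above it in both AN groups. Without a spread over rats it is not known which neighbours in this order differ.

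At a threshold of 2-fold, 0 of the 7 members that passed the filter were lower and 0 were higher in acute AN rats. Of all 11326 genes that passed the filter in the acute phase, 11.4% were at least 2-fold lower and 2.07% at least 2-fold higher. After rescaling to a common sum 1 member was lower (Cd74), against 12.7% of all genes. After centring on the macrophage and microglia list 3 members were lower (RT1-Ba, RT1-Da and Cd74), with an acute median of -0.89, and so were 24.9% of all genes, since the centring lowers every acute ratio alike. In the chronic phase 0 of 7 were lower and 1 of 7 was higher, against 6.33% lower and 2.27% higher among 11429 genes. The median log2 ratio of the members was -0.24 at 1 week and 0.44 at 8 weeks, with medians over all genes of -0.0016 and 0.0044. At 1 week 4 members were below and 3 above equality, or 5 and 2 after centring on macrophage genes, when RT1-Bb was at -0.38, and at 8 weeks 1 was below and 6 above. The 2 RT1-DM ratios of 0.03 at 8 weeks were on the other side of equality, by at most -0.12, after centring on macrophage genes or rescaling.

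The ratios of the presenting chains and Cd74 were lower in the acute phase, and those of RT1-DM were higher. The acute minus the chronic log2 ratio was -1.57 for RT1-Bb, -1.11 for both RT1-Ba and RT1-Db1, -0.97 for RT1-Da and -0.87 for Cd74. It was 0.97 for RT1-DMa and 0.94 for RT1-DMb. Thus 3 of 7 members had a ratio at least 2-fold lower in the acute than in the chronic phase, against 5.93% of 11108 genes, and 0 had one at least 2-fold higher, against 1.39%. The first count was 5 after centring on the macrophage and microglia list, against 17.2% of all genes, and 0 with Cd74 alone, the only directly named member. The median over the members was -0.97 and that over all genes -0.04. Ciita, outside the filter, had a value of -1.28.

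**Figure D3:**
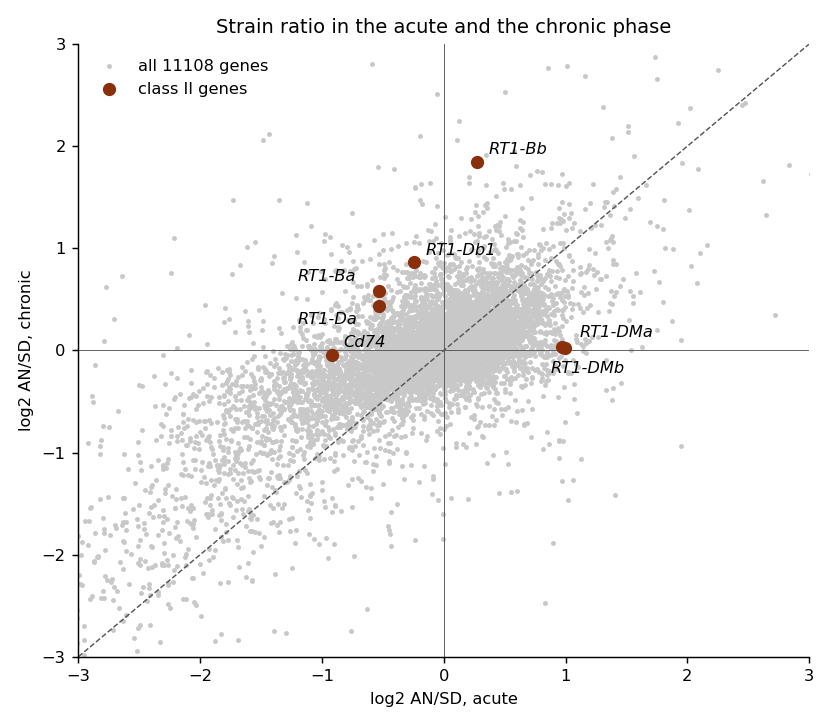
Log2 ratio of AN over SD in the acute phase (x axis) and the chronic phase (y axis) for the 11108 genes that passed the filter in both (grey, 183 of them outside the axes) and for 7 class II genes (red); the dashed line marks an equal ratio in both phases. RT1-Bb, RT1-Db1, RT1-Ba, RT1-Da and Cd74 lie above the line, and RT1-DMa and RT1-DMb lie below it.

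The neighbours of the RT1 genes gave a view of the same chromosomal stretch without class II function. The tables list 15 named genes between the first and the last class II gene (chr20:4636310-4907767 on RN4), of which 5 are not class II. These are Tap1 and Tap2, the subunits of the peptide transporter for class I, Psmb8 and Psmb9, subunits of the immunoproteasome, and Brd2, a chromatin reader. Their log2 ratios ran from -0.63 to 0.53 acutely and from -0.9997 to 0.44 chronically. The acute minus chronic difference of these 5 ran from -0.17 to 0.42, whereas every RT1 member of the stretch lay at -0.97 or lower or at 0.94 or higher. Tap2, Psmb8, Tap1 and Psmb9 lie between the presenting chains and the RT1-DM genes.

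**Figure D4:**
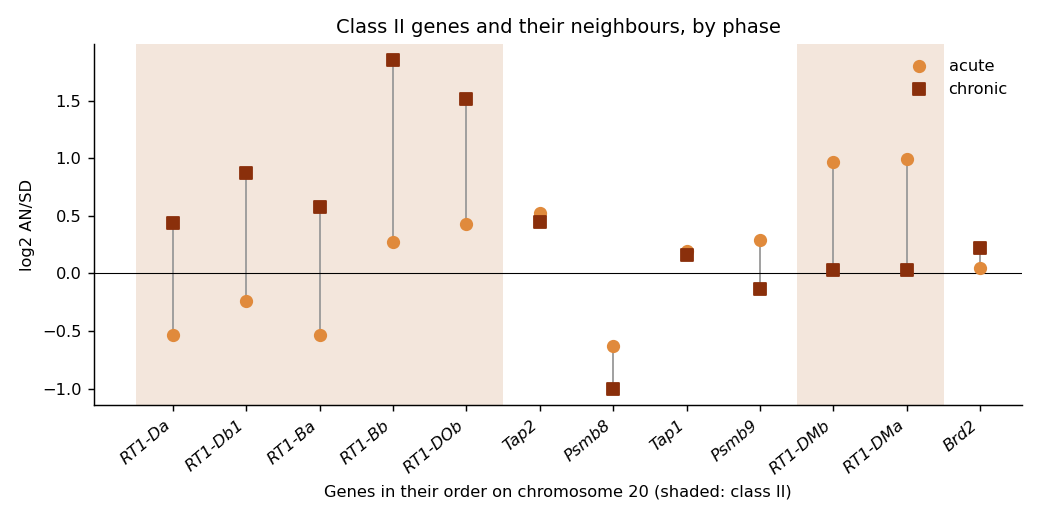
Log2 ratio of AN over SD in the acute (circles) and chronic (squares) phase for the genes of the class II region that passed the filter in both phases, in their order on chromosome 20, with class II genes shaded. The chronic ratio is above the acute one for RT1-Da, RT1-Db1, RT1-Ba, RT1-Bb and RT1-DOb and below it for RT1-DMb and RT1-DMa, and the unshaded neighbours differ by at most 0.42 between the phases.

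Other class II chains were expressed at low levels. Of 4 named, 1 passed the filter acutely and 3 chronically. RT1-DOb, the beta chain of the RT1-DO molecule that restrains RT1-DM, had 2.01 FPKM in SD and 2.71 in AN rats at 1 week, and 1.64 and 4.67 respectively at 8 weeks, with log2 ratios of 0.43 and 1.51. RT1-DOa, its alpha chain, had 0.76, 0.327, 0.43 and 1.16 FPKM in the same order of groups, with a chronic log2 ratio of 1.43. RT1-DOb thus resembled RT1-Bb rather than RT1-DM in its ratios. RT1-Db2, a close relative of RT1-Db1, had 0.899 FPKM in acute SD and 1.37 in chronic SD rats, was listed at 0 in acute AN rats and had 0.0159 in chronic AN rats. Reads of these related beta chains may have been divided between them in counting, so the values of RT1-Db1 and RT1-Db2 are uncertain. RT1-Ha had at most 0.303 FPKM in any group.

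Of the transcription factors of the class II promoters, all 9 named passed the filter in both phases and none differed by 2-fold in either phase. Among all genes that passed, 11.4% were at least 2-fold lower and 2.07% higher acutely, and 6.33% lower and 2.27% higher chronically. At such shares a short list can hold none, so the count is a description. Acutely 8 of 9 were above equality in AN rats, with a median log2 ratio of 0.22, although none exceeded the macrophage median given below, and chronically 5 of 9 were, with a median of 0.04. They include Rfxap and Rfxank of the X box complex, Nfya, Nfyb and Nfyc of the Y box complex, and the myeloid factors Irf8 and Spi1. Their log2 ratios ran from -0.15 to 0.43 acutely and from -0.28 to 0.18 chronically. Rfx5, the DNA-binding subunit of the X box complex, was not analysed here.

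Of the interferon gamma pathway, the best known inducer of Ciita, 5 of 6 named genes passed the filter and none differed by 2-fold. The shares of all genes were 11.4% lower and 2.07% higher acutely, and 6.33% and 2.27% chronically, so a short list can hold none. Ifng, which encodes the cytokine, was listed at 0 in acute AN rats and had 0.052, 0.047 and 0.047 FPKM in acute SD, chronic SD and chronic AN rats. Ifngr1, a receptor chain, had log2 ratios of 0.34 at 1 week and 0.08 at 8 weeks.

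Genes that process antigen and the invariant chain lay mostly above equality in AN rats, by less than 2-fold, although acutely only Ctsl, Lgmn and Ifi30 exceeded the macrophage median given below. Of 8 named, 7 passed acutely and 8 chronically, with medians of 0.56 and 0.35. Ctss, the cathepsin that degrades the invariant chain, had log2 ratios of 0.28 and -0.23. Lgmn, an endosomal protease, had 0.77 and 0.38, and Ifi30, a lysosomal thiol reductase that unfolds antigens, had 0.77 and 0.27. Ctsb was listed at 0 in acute AN rats, where the tables mark the estimate as failed, and is given no acute ratio. Cst3, an inhibitor of cathepsins, had -0.70 and -0.07.

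The remaining lists of the pathway held no gene that differed by 2-fold in either phase. Of all genes, 11.4% were at least 2-fold lower and 2.07% higher acutely, and 6.33% and 2.27% chronically, so lists this short can hold none. The class II turnover list, with 4 named genes, had medians of -0.17 and 0.09. Its member Marchf1, the ubiquitin ligase that removes class II from the surface, had log2 ratios of 0.66 and 0.63. It was the only 1 of the list above equality acutely, and the other 3 were below. These were Cd9 with -0.61 and -0.36, Marchf8 with -0.29 and -0.15, and Lamp1 with -0.04 and 0.33. Of the costimulation list, 4 of 5 passed acutely and 3 chronically, with medians of 0.55 and -0.02. Cd80, a ligand of Cd28 on T cells, had an acute log2 ratio of 0.996, just short of the threshold. The class I list, with 8 named genes, had medians of 0.17 and 0.13.

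Markers of the cells that carry class II also differed between the strains, and their part in the class II ratios was not tested. In whole tissue, fewer cells of a type and less RNA per cell cannot be told apart. Of the macrophage and microglia list all 12 named genes passed, and 10 were above equality in acute AN rats. In that phase 3 of the 12 were at least 2-fold higher, against 2.07% of all genes. The 12 genes had a median log2 ratio of 0.65 at 1 week and 0.15 at 8 weeks. Their summed level was 3904.5 FPKM in SD and 5863.6 in AN rats at 1 week, and 2612.7 and 2879.0 respectively at 8 weeks. Cd68, a lysosomal protein of macrophages, had log2 ratios of 0.66 and 0.47, Itgam 1.12 and 0.41, Cd14 1.17 and -0.03, Cd163 1.95 and 1.84, and Mrc1 0.95 and 1.24. Of the genes best known from resident microglia, P2ry12 had log2 ratios of -0.41 and 0.29, Tmem119 had -0.12 and -0.36, and Cx3cr1 had 0.61 and -0.24. Csf1r, a growth factor receptor of both cell types, had 0.13 and -0.12. RT1-DMa, RT1-DMb and Cd14 shared an acute ratio near 2-fold and a chronic ratio near equality, whereas Cd74 and 3 of the 4 presenting chains were below equality in the acute phase. Aif1 was not analysed here.

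Of the dendritic cell list 4 of 7 named genes passed in each phase, with medians of -0.16 and 0.17 and a summed level between 40.7 and 51.9 FPKM in the 4 groups. Flt3, a growth factor receptor of dendritic cells, had 2.73 FPKM in SD and 0.612 in AN rats at 1 week, and 3.22 and 1.84 respectively at 8 weeks. It was lowest in acute AN rats, as were RT1-Da, RT1-Db1, RT1-Ba and Cd74, but the other genes of the list that passed were not. Clec10a was lowest in acute SD rats (29.1 FPKM), and Clec9a (1.16 FPKM) and Itgax (4.65 FPKM) were lowest in chronic SD rats. Itgax, an integrin of dendritic cells and activated macrophages, had log2 ratios of -0.07 and 1.24. None of the 4 named B cell and plasma cell genes passed the filter, and their summed level was between 0.387 and 1.05 FPKM.

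Of the T cell list 4 of 10 named genes passed in each phase. Cd3g, part of the CD3 signalling complex of T cells, had 2.74 FPKM in SD and 0.531 in AN rats at 1 week, and 2.58 and 1.40 respectively at 8 weeks, with log2 ratios of -2.37 and -0.88. Cd4 had 102, 44.4, 94.0 and 79.0 FPKM in the same order of groups, with log2 ratios of -1.20 and -0.25. In the rat Cd4 is carried by macrophages as well as T cells. Cd3e was also at least 2-fold lower in acute AN rats, with a log2 ratio of -1.62. Cd2 went the other way, with log2 ratios of 0.51 at 1 week and 1.02 at 8 weeks, the latter at least 2-fold higher in AN rats. The summed level of the list was 111 FPKM in SD and 48.5 in AN rats at 1 week, and 103 and 89.4 respectively at 8 weeks, most of it from Cd4.

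Of the spinal cord tissue genes all 4 named were at least 2-fold lower in acute AN rats, against 11.4% of all genes. Their log2 ratios were -4.72 for Snap25, -4.56 for Nefl, -1.48 for Gfap and -1.44 for Mog. In the chronic phase Snap25 had -3.14, Nefl -2.04 and Mog -0.39, and Gfap was listed at 0 in SD rats as a failed estimate. Neuronal, oligodendrocyte and astrocyte genes were thus lower in acute AN rats, as were Cd74 and most presenting chains. The neuronal genes Snap25 and Nefl were also lower in chronic AN rats, when every presenting chain was higher. The part of these tissue genes in the class II ratios was not tested.

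**Figure D5:**
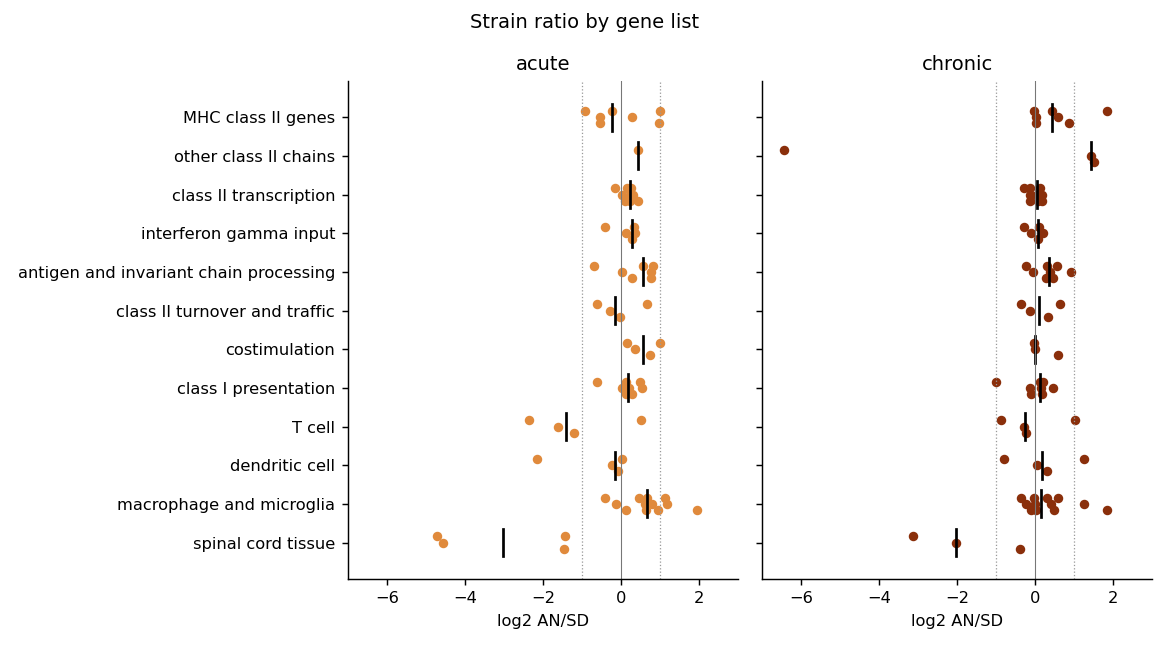
Log2 ratio of AN over SD in the acute and the chronic phase for the genes of each list that passed the filter, with 1 point per gene, a black bar at the list's median and dotted lines at 2-fold; the B cell and plasma cell list has no gene that passed. The class II genes have medians of -0.24 and 0.44, and the macrophage and microglia list has medians of 0.65 and 0.15.

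The genes whose pattern over the 4 groups was nearest to that of Cd74 were sought among 6113 genes with a mean of at least 10 FPKM, by Euclidean distance between log2 levels centred on each gene's own mean. The 5 nearest were Prex2 (distance 0.048), Naa80 (0.0644), Pls1 (0.0655), Nrbp2 (0.0907) and Slco3a1 (0.0923). With 4 groups and values normalized separately by phase, many genes come close, and nothing about shared function follows. Among the class II genes RT1-Da ranked at 254, RT1-Ba at 389 and RT1-Db1 at 807 in nearness to Cd74. RT1-Bb ranked at 4623, RT1-DMa at 5940 and RT1-DMb at 5960, so the RT1-DM genes were among the genes least like Cd74.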

How the data were processed

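RNA was sequenced from a 1-mm segment of spinal cord at the injury site. Per the labels and the study's methods, the authors trimmed adapters with cutadapt, mapped paired reads to RN4 with TopHat (1.5.0 in the submitters' notes), assembled transcripts with Cufflinks (0.0.6) using quartile normalization, and compared strains with Cuffdiff within each phase. The authors deposited 1 FPKM value per group of 3 rats and gene, in 1 table per phase, each normalized separately. The tables also hold the authors' log2 fold changes, test statistics, p-values and q-values. These are their own comparisons and were not used. With 1 value per group, no test could be run here. Depth per gene is unknown.

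The log2 ratio of AN over SD FPKM was taken without a pseudocount for genes above 0 in both groups and at least 1 FPKM in 1 of them, and 2-fold was the threshold. The script was tested on simulated data with known ratios. Locus starts, counted from 0 in the tables, were raised by 1. Python 3.11.15, pandas 2.3.3 and numpy 2.4.6 were used.

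The tables list RGD identifiers without symbols. Of 17423, 4520 were named directly, from the study's gene table or RGD synonyms in the RefSeq GRCr8 gene table, 8691 by gene order between them, and 4212 were not named. Of 2205 held-out direct names 1672 were named again, 96.9% of them rightly. Cd74 was named directly and the other 7 members by order; their neighbours RT1-Db2 and Psmb8 on chromosome 20 were named directly.

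The named genes are the members, up to 5 genes per list and phase that differed by 2-fold or more, a set of defining markers and regulators, and the 5 genes nearest to Cd74. A few genes under this rule are not reported here. Genes named beyond this rule (among them Lgmn, Ifi30, Ctss, Cst3, Marchf1, Cd80 and the neighbours on chromosome 20) were chosen after their values were seen. Members and lists were chosen with earlier results of these data known. Replicate samples are separate rats.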

Additional observations from a re-analysis of the deposited data

How the results depend on the processing

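The members' counts, medians and single ratios were recomputed with a pseudocount of 0.1 or 1 FPKM, without the filter, with at least 1 FPKM in both groups, with values rescaled to a common sum, with ratios centred on the median of all genes or of the macrophage and microglia list, with directly named members only, and, for the counts, with a 1.5-fold threshold. The chain sums, ratios between genes, gene lists, neighbours, distances and promoter counts were not recomputed. The counts of members higher in AN rats were added after seeing the data. Rescaling made 1 member at least 2-fold lower in acute AN rats, Cd74. Centring on the macrophage and microglia list made 3 lower (RT1-Ba, RT1-Da and Cd74), and moved the median of all genes by the macrophage medians given above; the members' medians became -0.89 acutely and 0.29 chronically, and 5 members with a ratio at least 2-fold lower acutely than chronically. Without the filter, which adds Ciita, the acute median was -0.37. With Cd74 alone, the only directly named member, the medians were -0.916 and -0.0414, and the counts of members higher in chronic AN rats and of members lower in the acute than in the chronic phase were both 0. At 1.5-fold 1 member was lower (18.0% of all genes) and 2 were higher (7.51%) in acute AN rats, 2 were higher in chronic AN rats (6.33%), and 5 had a lower ratio in the acute than in the chronic phase (14.4%). Of single ratios, those of RT1-Bb at 1 week (-0.38) and of RT1-DMa and RT1-DMb at 8 weeks (-0.12 each) crossed equality on centring on macrophage genes, and the latter pair (-0.04 each) on rescaling; each was under 2-fold throughout. Leaving out a rat was not possible, since each group has 1 pooled value. Strains and phases were compared between separate rats, so the design holds no pairs. The depth behind each value is unknown.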
